A study of Mus musculus with 15 samples.

Results

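The genes described here release calcium from the endoplasmic reticulum of Purkinje cells (PCs), control that release and refill the store. They are the 10 genes *Itpr1*, *Itpr2*, *Ryr1*, *Ryr2*, *Ryr3*, *Atp2a2*, *Atp2a3*, *Car8*, *Itpka* and *Stim1*, chosen by name and found among the 38561 gene rows of every library. The choice was made with earlier results of these data known. The libraries hold RNA of PCs cut from mouse cerebellum by laser capture microdissection, in which single cells picked under the microscope are excised from a section. Tissue came from male mice of the strain that the labels spell C56/BL6, at 5 ages between birth (P0) and postnatal day 21 (P21), the others being P4, P8 and P14, and each age has 3 biological replicates, which gives 15 libraries. No treatment or altered allele is named in the labels for any group. At P4 to P21 each library was made from 1000 PC somata, whereas at P0, before single PCs could be isolated easily, clusters of PCs were taken from 6 parasagittal sections. The P0 libraries therefore differ from the others in dissection as well as in age, and both effects cannot be told apart in any comparison with P0.

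In PCs, synaptic input activates phospholipase C beta, which makes inositol trisphosphate (IP3), and IP3 opens IP3 receptors in the membrane of the endoplasmic reticulum. PCs are known for an exceptionally high content of the type 1 IP3 receptor, and loss of this receptor, or of Car8, causes ataxia in mice. Ryanodine receptors form a further release channel that calcium itself opens, SERCA pumps return calcium to the store, and Stim1 senses the calcium level of the store lumen and opens channels of the plasma membrane when it falls.

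RNA of 7 of the 10 genes rose from P0 to P21, RNA of 2 fell, and the remaining gene, *Ryr2*, did not pass the test. In the quasi-likelihood F test of edgeR on postnatal day as a number, *Itpr1*, *Ryr1*, *Atp2a2*, *Atp2a3*, *Car8*, *Itpka* and *Stim1* rose, against 12.1% of the 14293 genes tested that rose. *Itpr2* and *Ryr3* fell, against 14.1% of all genes tested. The median slope of the 10 genes was 0.15 log2 units per day, beside -0.0077 over all genes tested. From P0 to P21 the median log2 change was 3.34 for the 10 genes and -0.11 for all genes tested, and this shift of all genes applies to every log2 change given for that comparison. The median of 10 did not depend on the size of the fall of *Ryr3*, which was at 0 counts at P21. With the P0 libraries left out, the same test again called 7 genes rising and 2 falling, beside 1411 and 1526 of all 13854 genes tested. The number falling was 1 by limma-voom, without the count filter and on log2(day + 1), and 1 to 2 with each library left out. Among all genes, 1807 of 14293 fell by limma-voom, 2503 of 20928 without the filter and 1476 of 14293 on log2(day + 1). In the contrast of P21 with P0, *Ryr3* did not pass (adjusted p = 0.0579 by edgeR).

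Levels are given below as RPKM, the count per kilobase of exon scaled to the library's total counts on genes. Exon length is that of all annotated transcripts of a gene together. How evenly reads covered long transcripts was not examined, so RPKM compares different genes only roughly. Slopes and steps are log2 changes of the edgeR fit with TMM scaling. Folds between RPKM means lack that scaling and differ from the fit. For *Itpr1* from P0 to P21 they were 28.1-fold by RPKM and 36.0-fold in the fit. Total counts on genes were between 3409371 and 7814951 per library, so that a gene without a count lies below 3 counts, or 0.384 to 0.880 CPM, a unit that adjusts for library size but not for gene length. Among the PC markers *Calb1*, *Pcp2*, *Pcp4* and *Ppp1r17* all 4 rose, and their summed level went from 3833 CPM at P0 through 8633, 13040.0 and 21082 to 26903 at P21. In bulk RNA of this kind, fewer cells of a type and less RNA per cell cannot be told apart. At P14, replicate 2 had the lowest RPKM of the 3 libraries for 8 of the 10 genes, and at P0 replicate 1 had the lowest for 7.

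Positions are given on GRCm38 from GENCODE M21. The IP3 receptor genes *Itpr1* (chr6:108213096-108551109, plus strand) and *Itpr2* (chr6:146108299-146502223, minus strand) share a chromosome. Exons of *Ryr1* (chr7:29003344-29125179, minus strand) overlap the antisense gene *Gm26604* over 864 bases, and those of *Ryr3* (chr2:112631355-113217096, minus strand) overlap *Aven* over 916 bases. These overlaps make up 3.96% and 4.83% of the exon bases of *Ryr1* and *Ryr3*, and whether reads were counted by strand is not given in the sources used here. The exons of *Ryr2* (chr13:11553102-12106945, minus strand), *Atp2a2* (chr5:122453513-122502225, minus strand) and *Atp2a3* (chr11:72961169-72993044, plus strand) overlap no other gene. The same holds for *Car8* (chr4:8143362-8239041, minus strand), *Itpka* (chr2:119742337-119751263, plus strand), *Stim1* (chr7:102267806-102437319, plus strand) and both IP3 receptor genes.

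Promoter windows of 200 bases, ending 50 bases before the transcription start, were read from RefSeq (GRCm38.p6) for 6 of the 10 genes. Those of 3 genes that rose (*Atp2a3*, chr11:72960919-72961118; *Itpka*, chr2:119742087-119742286; *Stim1*, chr7:102267569-102267768, all plus strand) and of *Itpr2*, which fell (chr6:146502274-146502473, minus strand), are shown to compare promoters of genes that moved in opposite directions. They run 5′ to 3′ on the strand of the gene, and capitals mark each match to the GC box GGGCGG on either strand.
Atp2a3: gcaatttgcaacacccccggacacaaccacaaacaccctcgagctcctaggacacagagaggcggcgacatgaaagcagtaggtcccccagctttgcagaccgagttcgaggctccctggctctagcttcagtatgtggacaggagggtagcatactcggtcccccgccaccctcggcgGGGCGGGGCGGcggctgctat
Itpka: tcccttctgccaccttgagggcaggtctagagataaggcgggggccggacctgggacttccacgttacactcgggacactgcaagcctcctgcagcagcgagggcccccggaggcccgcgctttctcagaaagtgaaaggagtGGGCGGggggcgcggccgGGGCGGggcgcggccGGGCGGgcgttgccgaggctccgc
Stim1: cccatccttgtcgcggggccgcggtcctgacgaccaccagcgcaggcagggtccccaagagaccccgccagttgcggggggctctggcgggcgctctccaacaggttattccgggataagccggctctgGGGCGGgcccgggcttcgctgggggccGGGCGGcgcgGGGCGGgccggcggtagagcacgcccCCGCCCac
Itpr2: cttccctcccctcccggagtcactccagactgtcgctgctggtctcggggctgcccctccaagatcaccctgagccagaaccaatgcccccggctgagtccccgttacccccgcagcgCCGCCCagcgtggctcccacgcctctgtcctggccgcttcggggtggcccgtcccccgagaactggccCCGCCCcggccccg

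GC boxes were found in 5 of the 6 windows. *Stim1* had 4 matches, *Itpka* 3, *Atp2a3* 2 that overlap each other, *Itpr2* 2 and *Ryr1* 1, whereas the *Ryr2* window had 0. A GC box occurred in 24.6% of the 32851 mouse promoter windows of this length. CpG dinucleotides numbered 24 in *Stim1*, 20 in *Itpka*, 17 in *Itpr2*, 13 in *Atp2a3*, 8 in *Ryr2* and 4 in *Ryr1*, beside a median of 4 over all windows. The letters TATAAA, found in 9.14% of windows, were in none of the 6, and AGGTCA, a nuclear receptor half-site found in 11.4% of windows, was in that of *Ryr2* alone. These matches describe the windows and were not tested against the courses.

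Of the IP3 receptors, *Itpr1*, the main release channel of PCs, rose at every step. Its RPKM in replicates 1, 2 and 3 was 9.13, 11.4 and 11.9 at P0, 64.8, 68.4 and 69.2 at P4, 128, 129 and 132 at P8, 244, 187 and 272 at P14, and 299.7, 290.0 and 322 at P21. No 2 neighbouring time points overlapped, and the P21 mean was 28.1-fold above the P0 mean. The step from P0 to P4 was the largest, with a log2 change of 2.74 (SE 0.16, adjusted p = 1.24e-07 by edgeR), or 53.0% of the whole log2 change. The next steps were 0.96 from P4 to P8 (adjusted p = 0.00271) and 1.01 from P8 to P14 (adjusted p = 0.00136). The last step, 0.47 from P14 to P21, missed the threshold (adjusted p = 0.354 by edgeR), although every P21 library was above every P14 library. By limma-voom this step passed (adjusted p = 0.0278).

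*Itpr2*, the IP3 receptor best known from astrocytes and many peripheral tissues, kept a low level until P14 and was lower at P21. Its RPKM was 2.18, 2.38 and 1.70 at P0, 2.95, 2.03 and 2.17 at P4, 2.98, 2.01 and 1.15 at P8, and 1.63, 1.41 and 2.23 at P14. At P21 the 3 libraries had 0.416, 0.231 and 0.656, all below every earlier library. The P21 mean was 4.80-fold below the P0 mean, and 100.5% of the net log2 change lay between P14 and P21. That last step was a log2 change of -1.92 (SE 0.50) with adjusted p = 0.179 by edgeR and 0.0191 by DESeq2. The change from P0 to P21 was -1.91 (adjusted p = 0.0106), or -1.61 with adjusted p = 0.0539 without P21 replicate 2.

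The slope of *Itpr2* was -0.079 log2 units per day (SE 0.028, adjusted p = 0.0458), close to the threshold. The call was lost without P0 replicate 2, without any 1 of the P4 libraries, without P8 replicate 2, without P14 replicate 2 and without any 1 of the P21 libraries, with adjusted p between 0.0506 and 0.142. It was also lost by limma-voom (adjusted p = 0.0871), without the filter on low counts (0.0520) and on log2(day + 1) (0.339). Markers of astrocytes and Bergmann glia, 9 genes of which 4 rose and 2 fell, were at summed levels of 4839, 7409, 9492, 7121 and 4622 CPM from P0 to P21. This glial level also dropped from P14, where libraries ranged from 6898 to 7352, to P21, where they ranged from 3851 to 5539, and its part in the fall of *Itpr2* was not tested.

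The balance within the family shifted further to *Itpr1* at each time point. *Itpr1* made up 82.2% ± 1.28 (SD, n = 3) of the summed RPKM of the 3 IP3 receptors at P0, and the later means were 96.6% ± 0.805, 98.4% ± 0.708, 99.2% ± 0.0952 and, at P21, 99.8% ± 0.0916. The log2 ratio of *Itpr1* over *Itpr2* within a library had means of 2.37, 4.84, 6.09, 7.07 and 9.55 in order of age. All 6 libraries of P14 and P21 were above all 6 of P0 and P4, with a mean difference of 4.70 (two-sided exact permutation test, adjusted p = 0.00577 over 8 ratios, n = 6 and 6). The raw p of this test, 0.00216, is the smallest that the 924 splits allow. *Itpr3*, the last IP3 receptor gene, had counts in 3 libraries only, 28 in P0 replicate 3, 9 in P14 replicate 2 and 35 in P21 replicate 2, and was at 0 in the others.

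**Figure D1:**
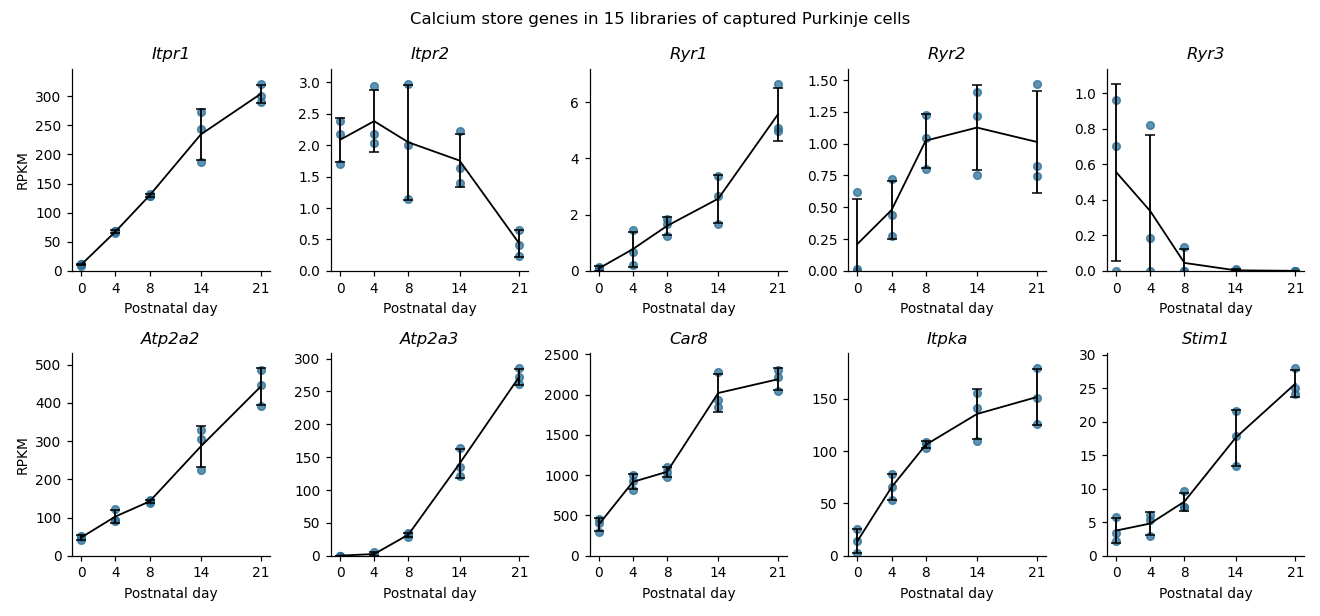
RPKM of the 10 calcium store genes (y axis, linear, own scale in each panel) against postnatal day (x axis); points are the 3 libraries of a time point, the line joins their means and bars are ± 1 SD. Means of *Itpr1*, *Ryr1*, *Atp2a2*, *Atp2a3*, *Car8*, *Itpka* and *Stim1* were higher at each successive time point, those of *Car8* mainly in 2 stages. *Itpr2* was lowest at P21, and *Ryr3* had 0 counts in every P21 library.

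Ryanodine receptors were far less abundant than IP3 receptors at every time point, with a summed mean of 0.851 RPKM at P0 and 6.58 at P21 beside 13.1 and 305 for the IP3 receptors. *Ryr1*, first known as the release channel of skeletal muscle, accounted for most of the increase. Its RPKM was 0.137, 0 and 0.114 at P0, 0.205, 1.44 and 0.680 at P4, 1.25, 1.68 and 1.86 at P8, 2.65, 1.67 and 3.38 at P14, and 6.66, 5.08 and 4.97 at P21. Every P21 library was above every earlier one, and the P21 mean was 66.5-fold above the P0 mean, which rests on 14, 0 and 11 counts. The slope was 0.24 log2 units per day (SE 0.040, adjusted p = 0.000187), a call that every alternative retained.

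Of the steps of *Ryr1*, that from P0 to P4 passed, with a log2 change of 3.33 (SE 0.77, adjusted p = 0.0354 by edgeR). It no longer passed without P0 replicate 2 or 3, without P4 replicate 2, without any 1 of the P8 or P21 libraries or without P14 replicate 1 or 3 (adjusted p between 0.0516 and 0.138). The value without P4 replicate 2, which held 245 counts beside 17 and 80, was 2.44, and limma-voom gave adjusted p = 0.118.

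*Ryr2*, the cardiac form and also widespread in brain, stayed near 1 RPKM from P8 on. Its RPKM was 0, 0.619 and 0.0158 at P0, 0.721, 0.276 and 0.439 at P4, 1.22, 0.802 and 1.05 at P8, 0.756, 1.41 and 1.22 at P14, and 0.744, 0.825 and 1.47 at P21. P0 replicate 2 stood apart with 80 counts, whereas the other P0 libraries had 0 and 2. With all libraries the slope of 0.11 missed the threshold (SE 0.050, adjusted p = 0.0994 by edgeR), as did the P0 to P4 change of 1.25 (SE 1.04, adjusted p = 0.675). Without P0 replicate 2 the P0 to P4 change was 5.85 (adjusted p = 0.00334) and the P0 to P21 change was 7.21 instead of 2.61 (adjusted p = 6.28e-05 instead of 0.0947). The slope also passed by limma-voom (adjusted p = 0.0354) and on log2(day + 1) (0.0411).

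*Ryr3*, the least abundant form in most tissues, was detected mainly at P0 and P4 and reached 0 counts by P21. Counts were 0, 82 and 59 at P0, 0, 122 and 19 at P4, 0, 13 and 0 at P8, 1, 0 and 0 at P14, and 0 in each P21 library. These correspond to 0, 0.963 and 0.705 RPKM at P0 and 0, 0.823 and 0.186 at P4. Libraries with and without counts occurred together at P0, P4, P8 and P14. Over the pooled libraries of a time point, the P0 level was at least 55.3-fold above the limit that 0 counts allow at P21 (3 counts over the group). The slope was -0.48 log2 units per day (SE 0.11, adjusted p = 0.00355 by edgeR), and was -0.25 by limma-voom (adjusted p = 0.0469), so that its size depends on the tool. With the time point as a factor *Ryr3* did not pass (adjusted p = 0.112), nor did the P0 to P21 contrast (-8.62, adjusted p = 0.0579 by edgeR). That contrast passed without P0 replicate 1 (0.0357), without P4 replicate 1 (0.0433), by DESeq2 (0.0175) and without the count filter (0.0444). It did not pass by limma-voom (-4.54, adjusted p = 0.149) or without any 1 of the other 13 libraries (adjusted p between 0.0530 and 0.140). Markers of granule cell precursors and dividing cells, of which 2 of the 3 tested fell, went from 268 CPM at P0 through 136, 44.0 and 3.37 to 1.42 at P21. *Atoh1*, the defining precursor marker, was at 0 throughout, and the part of such cells in the fall of *Ryr3* was not tested.

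**Figure D2:**
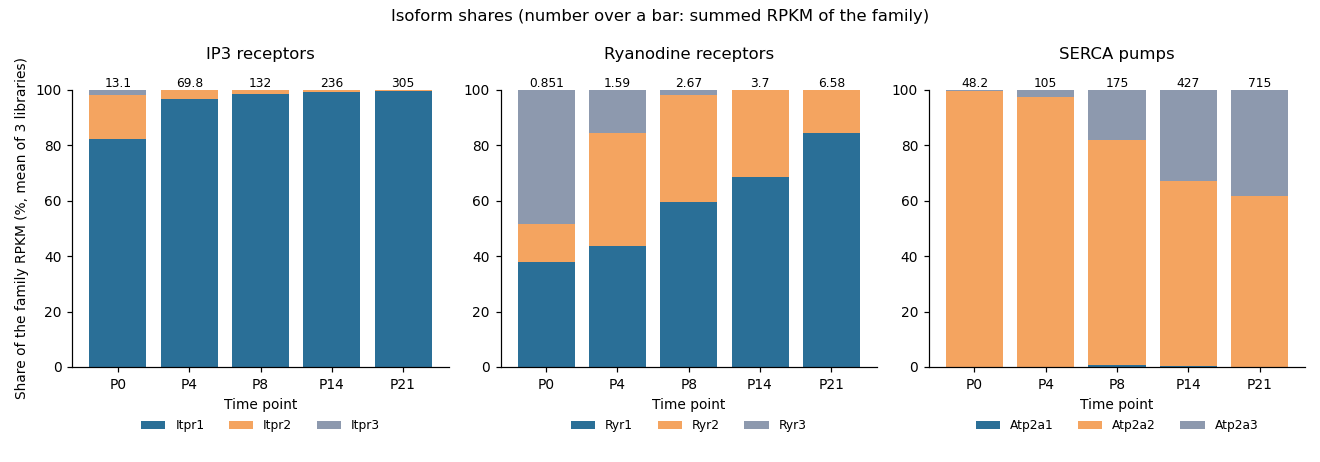
Share of each family member in the summed RPKM of its family (y axis, percent, mean of 3 libraries) at the 5 time points (x axis); the number over each bar is the family's mean summed RPKM. *Itpr1* held over 82% throughout, the share of *Ryr1* was 84.4% at P21, where *Ryr3* was at 0, and *Atp2a3* went from 0.317% to 38.2% of SERCA RNA.

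*Ryr1* made up 84.4% ± 6.57 (SD, n = 3) of ryanodine receptor RPKM at P21 and 43.6% ± 18.8 at P4, while at P0 its share was 0%, 100% or between them in single libraries, with an SD of 54.2. The log2 ratio of *Ryr1* over *Ryr2* was higher by 1.48 in the late than in the early libraries, which did not pass (exact permutation test, adjusted p = 0.562). This difference was 0.027 without P0 replicate 2 and 2.46 without P0 replicate 1. The log2 ratio of *Ryr3* over *Ryr2* was lower by 7.46 in the late libraries (exact permutation test, adjusted p = 0.0130). It was lower by 6.69 with 1 instead of 0.5 added to each count, since *Ryr3* was at 0 in 5 of the 6 late libraries. With P4 alone as the early group the difference was -5.33 and no longer passed (adjusted p = 0.0571, exact permutation test).

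The isoform balance of the SERCA pumps also shifted. *Atp2a2*, the widespread SERCA2 pump, had the higher level at every time point. Its RPKM was 41.8, 52.8 and 49.5 at P0, 94.8, 122 and 91.6 at P4, 139, 142 and 145 at P8, 305, 225 and 328 at P14, and 487, 448 and 392 at P21. Neighbouring time points did not overlap, and the P21 mean was 9.21-fold above that at P0. The slope was 0.16 log2 units per day (SE 0.011, adjusted p = 1.33e-08 by edgeR), and the steps from P0 to P4 (log2 change 1.199, adjusted p = 0.00226) and from P8 to P14 (1.16, adjusted p = 0.00199) passed. The last step of 0.73 did not pass by edgeR (adjusted p = 0.145) but did by DESeq2 (0.00573) and limma-voom (0.0194).

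*Atp2a3*, the SERCA3 pump, which has a lower calcium affinity, was nearly absent at birth. Its counts were 2, 3 and 6 at P0 and 120, 5 and 51 at P4. In RPKM it had 0.0808, 0.127 and 0.258 at P0, 5.97, 0.121 and 1.79 at P4, 32.4, 34.9 and 28.7 at P8, 136, 121 and 164 at P14, and 261, 271 and 285 at P21. P4 replicate 2 was still within the P0 range, and from P8 on every library was above every library of the time point before. The ratio of the P21 to the P0 mean was 1757, with a denominator of 11 counts over 3 libraries. Its slope of 0.48 log2 units per day (SE 0.063, adjusted p = 1.66e-05) was the 19th highest of 14293 genes. It was 0.37 with P0 left out (adjusted p = 0.000354) and 0.29 by limma-voom (adjusted p = 2.06e-05).

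The timing of *Atp2a3* depended on the libraries included. The P0 to P4 step was 4.04 (SE 0.92, adjusted p = 0.0324 by edgeR), and did not pass without P0 replicate 1 (adjusted p = 0.109), 2 (0.0906) or 3 (0.0640), without P4 replicate 1 (2.57, adjusted p = 0.143) or by limma-voom (2.49, adjusted p = 0.411). The P4 to P8 step of 3.72 (SE 0.67, adjusted p = 0.00928) passed in all but the fit without P4 replicate 3 (0.0626). The P8 to P14 step of 2.28 (SE 0.60) had adjusted p = 0.0568, and passed without P4 replicate 1 (0.00933), without P4 replicate 2 (0.000921), by limma-voom (1.11e-05) and without the count filter (0.0130). The P4 libraries enter that step through the shared dispersion.

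*Atp2a3* thus went from 0.317% ± 0.176 of the summed SERCA RPKM at P0 through 2.65% ± 2.98, 18.2% ± 1.52 and 32.9% ± 2.07 to 38.2% ± 3.63 at P21 (SD, n = 3). The total for all SERCA genes rose from 48.2 to 715 RPKM over the same period. Within libraries, the log2 ratio of *Atp2a3* over *Atp2a2* had means of -8.22, -6.49, -2.16, -1.02 and -0.69 in order of age. The late libraries were higher by 6.50 (exact permutation test, adjusted p = 0.00577), with no overlap. *Atp2a1*, the pump of fast skeletal muscle, had counts in 5 libraries of P8 and P14 only, at most 62.

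Of the genes that tune the IP3 signal, *Car8* encodes a carbonic anhydrase relative without enzyme activity that binds the type 1 IP3 receptor and lowers its affinity for IP3. It was the most abundant of the 10 genes at every time point. RPKM values were 297, 456 and 406 at P0, 819.8, 931 and 1002 at P4, 1039.6, 1108 and 979 at P8, 1936, 1846 and 2283 at P14, and 2226, 2044 and 2306 at P21. The course had 2 rises separated by plateaus, since the P4 and P8 libraries overlapped, as did those of P14 and P21. The P0 to P4 change was 1.34 (SE 0.15, adjusted p = 0.000232 by edgeR) and the P8 to P14 change 1.11 (SE 0.15, adjusted p = 0.000873), whereas P4 to P8 (0.20, adjusted p = 0.717) and P14 to P21 (0.21, adjusted p = 0.903) did not pass. Among 12853 tested protein-coding genes *Car8* ranked 110th by mean RPKM at P0 and 14th at P21.

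*Itpka* encodes the neuronal kinase that turns IP3 into inositol tetrakisphosphate and so ends its action on the receptor. RPKM values were 2.70, 13.9 and 25.6 at P0, 53.2, 78.3 and 65.3 at P4, 103, 109 and 107 at P8, 156, 109.7 and 141 at P14, and 126, 179 and 150.4 at P21. The P0 libraries differed most among themselves, on 23, 113 and 205 counts, and the P21 mean was 10.8-fold above the P0 mean. Most of the change, 61.4%, fell between P0 and P4, with a log2 change of 2.33 (SE 0.48, adjusted p = 0.0183 by edgeR). That step missed the threshold without P0 replicate 2 (2.30, adjusted p = 0.0532) and without P4 replicate 2 (2.13, adjusted p = 0.0546), and no later step passed.

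Relative to its receptor target, *Car8* was highest at birth. The log2 ratio of *Car8* over *Itpr1* averaged 5.15, 3.76, 3.01, 3.12 and 2.85 at the 5 ages, and mean RPKM of *Car8* was 35.8 times that of *Itpr1* at P0 and 7.21 times at P21. The late libraries were lower by 1.47 on the log2 scale (exact permutation test, adjusted p = 0.00577), and with P4 as the only early group by 0.78 (exact permutation test, adjusted p = 0.0317). The ratio of *Itpka* over *Itpr1* was lower by 0.82 in the late libraries, which did not pass (exact permutation test, adjusted p = 0.0895). Without P0 replicate 1, whose *Itpka* was lowest, the difference was -1.15 and passed (adjusted p = 0.00433, exact permutation test), as it did with P4 alone (-0.85, adjusted p = 0.0317).

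*Stim1*, the store sensor, rose with its largest step between P8 and P14. Its RPKM was 5.74, 3.35 and 2.19 at P0, 5.32, 6.16 and 2.97 at P4, 7.28, 9.66 and 7.34 at P8, 21.7, 13.4 and 17.8 at P14, and 25.1, 24.1 and 27.98 at P21. P0 and P4 overlapped, and each later time point lay above the one before, for a P21 mean 6.84-fold above that at P0. The slope was 0.16 log2 units per day (SE 0.015, adjusted p = 3.92e-07 by edgeR). The largest part of the change, 40.9%, lay between P8 and P14, a step of 1.28 (SE 0.34) that had adjusted p = 0.0595. It passed without P0 replicate 1 (0.0255), without P0 replicate 3 (0.0298), without P4 replicate 3 (0.0367), by DESeq2 (0.00777), by limma-voom (0.0142) and without the count filter (0.0355).

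**Figure D3:**
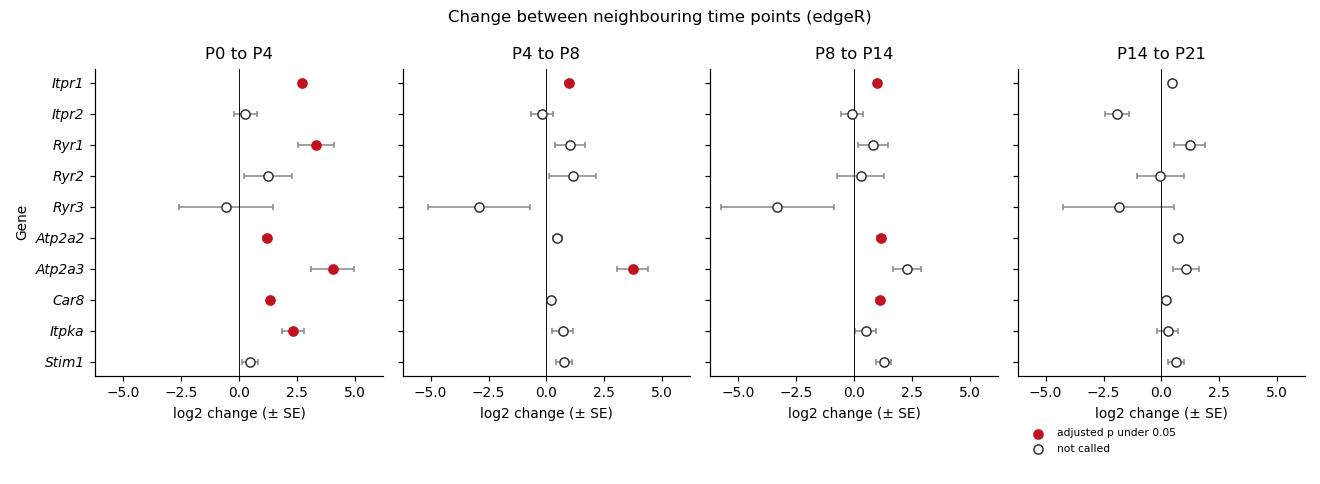
log2 change of each of the 10 genes between neighbouring time points (x axis, edgeR; bars are ± SE) with genes on the y axis; filled points have an adjusted p under 0.05. Of the steps, 6 genes passed from P0 to P4, 2 from P4 to P8, 3 from P8 to P14 and 0 from P14 to P21.

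The steps were counted over all 10 genes to show when the store machinery moved. From P0 to P4, 6 genes rose (*Itpr1*, *Ryr1*, *Atp2a2*, *Atp2a3*, *Car8* and *Itpka*), against 1.74% of all genes tested that rose. This count was 4 by limma-voom, where 196 of all 14293 genes rose, and 4 to 6 with each library left out. From P4 to P8, 2 rose (*Itpr1* and *Atp2a3*), against 0.882%. From P8 to P14, 3 rose (*Itpr1*, *Atp2a2* and *Car8*), against 1.29%, and this count was 5 by limma-voom and without the count filter, which added *Atp2a3* and *Stim1*. Of all genes, 386 of 14293 rose at this step by limma-voom and 213 of 20928 without the filter. From P14 to P21, 0 genes passed by edgeR, against 0.329% in either direction. At an unadjusted p under 0.05 there were 3 (*Itpr1*, *Itpr2* and *Atp2a2*), and the share of all genes at that level was not counted. DESeq2 called 2, beside 175 of all 14293 genes in either direction, and limma-voom 3, beside 53. From P0 to P21 the 7 genes with rising slopes were higher, against 12.2%, and *Itpr2* was lower, against 10.6%. With the time point as a factor, 8 genes changed in some pattern, all but *Ryr2* and *Ryr3*, against 19.3% of all genes tested. Neighbouring steps share a time point and are not independent.

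Release and refill were compared through ratios to *Atp2a2* alone within libraries, which do not depend on scaling between libraries. *Atp2a3*, at 32.9% of summed SERCA RPKM at P14 and 38.2% at P21, does not enter them. The summed SERCA means were 48.2, 105, 175, 427 and 715 RPKM in order of age. Those of *Itpr1* were 10.8, 67.4, 130, 234 and 304. A ratio to the SERCA sum was not tested. Mean RPKM of *Itpr1* was 0.225 times that of *Atp2a2* at P0, and the ratios of the means that followed were 0.657, 0.912, 0.819 and 0.687, so that the channel gained on the pump until P8. The log2 ratio of the late libraries was higher by 0.96 (exact permutation test, adjusted p = 0.0381). The call was lost without any 1 of the 6 late libraries (0.93 to 1.02, adjusted p between 0.0589 and 0.104, exact permutation tests), and with P4 alone as the early group the difference was 0.18 (adjusted p = 0.250). *Stim1* over *Atp2a2* moved by 0.056 (exact permutation test, adjusted p = 0.866), with single libraries at P0 and P4 between -4.94 and -2.86 and at P14 and P21 between -4.28 and -3.81.

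**Figure D4:**
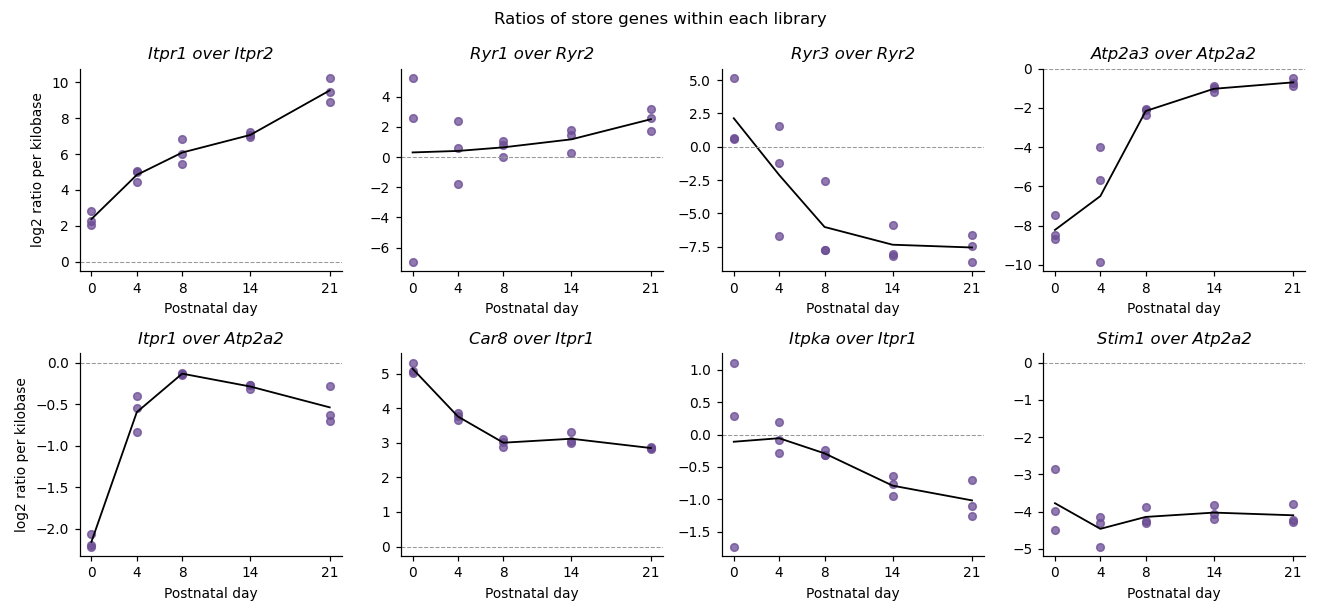
log2 ratio of counts per kilobase for 8 pairs of calcium store genes (y axis, 0.5 added to each count) against postnatal day (x axis); points are libraries, lines join means and the dashed line marks equal levels. *Atp2a3* approached *Atp2a2* without reaching it, *Car8* stayed above *Itpr1* in every library, and the ryanodine receptor ratios were widely spread at P0 and P4, where counts were few or 0.

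The order of the 10 genes by RPKM changed over the course. At P0 it was *Car8* (386 ± 81.2), *Atp2a2* (48.0 ± 5.66), *Itpka* (14.04 ± 11.4), *Itpr1* (10.8 ± 1.47), *Stim1* (3.76 ± 1.81) and *Itpr2* (2.09 ± 0.348), with the other 4 genes below 1 (SD, n = 3). *Itpka* and *Itpr1* did not differ beyond their spread at P0, nor did *Stim1* and *Itpr2*. At P21 it was *Car8* (2192 ± 134), *Atp2a2* (442 ± 47.7), *Itpr1* (304 ± 16.3), *Atp2a3* (272 ± 12.1), *Itpka* (152 ± 26.8), *Stim1* (25.7 ± 2.02), *Ryr1* (5.57 ± 0.948), *Ryr2* (1.01 ± 0.399), *Itpr2* (0.434 ± 0.213) and *Ryr3* at 0. The libraries of neighbours in this order did not overlap at P21. *Itpr1* went from rank 4037 to rank 138 of the 12853 tested protein-coding genes, *Atp2a2* from 1067 to 81, *Atp2a3* from 12131 to 155 and *Itpr2* from 9359 to 11009.

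Other genes of the pathway were taken from 5 lists with 73 genes, of which 60 were tested. These lists were written with earlier results of these data known. Their counts and shares, here and below, are therefore a description and no independent test. In the slope test 24 of these (40.0%) rose, against 12.1% of all genes tested, and 6 fell, a share below the 14.1% over all genes tested. Their median slope was 0.042 log2 units per day, beside -0.0077 over all genes. On the production side of IP3, 4 of 11 tested genes rose (against 12.1%) and 1 fell (against 14.1%). *Plcb4*, which encodes a phospholipase C beta, went from 355 ± 82.7 to 1039 ± 154 CPM (slope 0.064). *Plcb3*, its relative, went from 4.73 ± 4.22 CPM at P0, on 1, 43 and 27 counts, to 49.4 ± 16.3 at P21 (slope 0.22). Its mean was highest at P14, at 83.9 ± 23.7 CPM. *Gna11*, a G protein subunit that activates these enzymes, fell from 217 ± 70.8 to 120.5 ± 23.7 CPM (slope -0.041, adjusted p = 0.00474 by edgeR).

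Among enzymes that break down IP3 and its products, 5 of 11 rose (against 12.1%) and 0 fell (against 14.1%). *Inpp5a*, a phosphatase that removes a phosphate from IP3, went from 54.2 CPM ± 25.9 at P0 to 1116 ± 108 at P21 (slope 0.21, adjusted p = 2.94e-06 by edgeR). *Inpp5j* went from 2.31 ± 3.83 to 75.7 ± 13.98 CPM (slope 0.21) and *Inpp1* from 10.7 ± 3.95 to 104 ± 14.4 CPM (slope 0.13). *Itpkb* and *Itpkc*, the relatives of *Itpka*, did not pass, with slopes of 0.061 and 0.095. The kinase and the phosphatase routes of IP3 removal were therefore both represented among the rising genes.

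Of proteins that bind the release channels, 6 of 20 rose (against 12.1%) and 5 fell (against 14.1%). *Homer3*, a postsynaptic scaffold that binds IP3 receptors, rose from 14.2 CPM ± 10.3 to 850.2 ± 164 (slope 0.26, adjusted p = 2.16e-06 by edgeR), whereas its relative *Homer2* fell from 69.9 ± 38.4 to 11.3 ± 3.98 (slope -0.14, adjusted p = 0.000896). *Asph*, whose products include the store proteins junctin and junctate, rose from 31.0 ± 10.7 to 883 ± 63.9 CPM (slope 0.23). *Ahcyl2*, a relative of the IP3 receptor inhibitor IRBIT, rose from 18.8 ± 14.02 to 118 ± 27.5 CPM (slope 0.11). *Ahcyl1*, the gene of IRBIT itself, also rose, from 157 ± 81.8 to 613 ± 13.7 CPM (slope 0.11, adjusted p = 1.81e-05 by edgeR). *Fkbp1b*, which binds and stabilises ryanodine receptors, fell from 20.04 ± 16.1 to 1.09 ± 1.42 CPM (slope -0.22, adjusted p = 0.00382), and *Bok*, a Bcl-2 relative that binds IP3 receptors, from 69.8 ± 22.9 to 10.1 ± 3.44 (slope -0.13).

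Within the store lumen, 5 of 8 tested genes rose (against 12.1%) and 0 fell (against 14.1%). *Casq2*, the cardiac calsequestrin that buffers store calcium, rose from 0.132 CPM ± 0.114 at P0 through 3.90 ± 3.41, 86.8 ± 4.66 and 201 ± 4.97 to 285 ± 47.8 at P21 (slope 0.38, adjusted p = 0.000619 by edgeR). Its P0 libraries held 1, 0 and 1 counts. The general chaperones changed far less, with *Hspa5* from 364 ± 91.1 to 866 ± 174 CPM (slope 0.061) and *Calr* from 231 ± 63.7 to 535 ± 146 (slope 0.052). Of store-operated entry genes 4 of 10 rose (against 12.1%) and 0 fell (against 14.1%). The channel genes *Orai2* (33.8 ± 23.6 to 216 ± 58.8 CPM, slope 0.12) and *Orai3* (2.19 ± 2.13 to 109 ± 16.5, slope 0.24) rose. *Stim2* and *Orai1* did not pass, with slopes of 0.018 and 0.051.

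**Figure D5:**
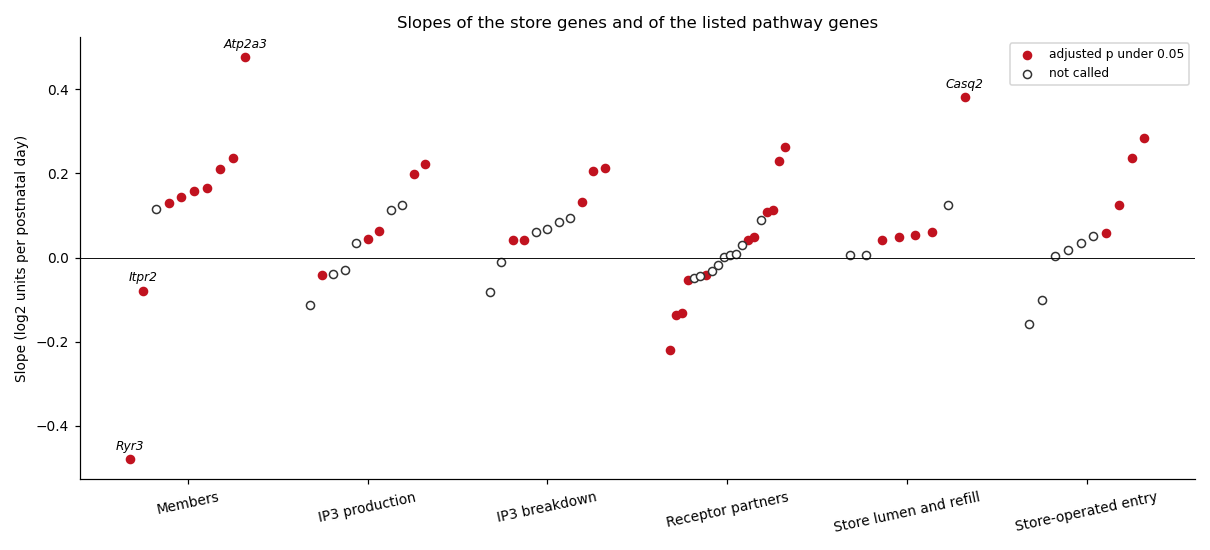
Slope on postnatal day (y axis, log2 units per day, edgeR) of the 10 store genes and of the tested genes of the 5 pathway lists (x axis); filled points have an adjusted p under 0.05. *Atp2a3* and *Ryr3* mark the extremes of the 10, and *Casq2* has the highest slope among the listed pathway genes.

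The genes most like each of the 10 across the 15 libraries were found by Pearson's correlation of log2 CPM among 9310 tested protein-coding genes with at least 10 CPM, as a description. All points share the course of age, so that a high value is common among rising genes. *Itpr1* was closest to *Trabd2b* (r = 0.990), *Gprc5b* and *Kcng4*, *Atp2a2* to *Thy1* (r = 0.988), *Fkbp2* and *Ndrg4*, and *Atp2a3* to *Ppp1r1b* (r = 0.986) and *Clmn*. *Car8* was closest to *Asph* (r = 0.986), *Ociad2* and *Itm2b*, *Itpka* to *Lynx1* (r = 0.983), *Tuba8* and *Htra1*, and *Stim1* to *Map7d2* (r = 0.984), *Cacna2d2* and *Adam23*. The nearest gene of *Ryr1* was *Orai2* (r = 0.962), followed by *Scd3* and *Ppp4r4*, and that of *Ryr2* was *Erlec1* (r = 0.954), followed by *Nr1d1* and *Fn3k*. *Itpr2* was closest to *Pcdh8* (r = 0.904), *Cmtm3* and *Tnc*, and *Ryr3* to *Qtrt2* (r = 0.864), *Ndn* and *Rnf219*. Among the 10 themselves the highest value was 0.977 for *Atp2a2* and *Car8*, and the lowest -0.72 for *Ryr3* and *Atp2a3*.

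Markers of other cells were measured beside these courses. Oligodendrocyte markers rose with the 7 rising genes, 5 of 5, from a sum of 22.4 CPM at P0 to 569 at P21. Granule neuron markers, of which 2 of 4 rose, were between 231 and 628 CPM in mean sum. Markers of molecular layer interneurons and Golgi cells lay between 70.8 and 156 CPM, with 0 of 4 tested changing. Microglial markers were at most 20.4 CPM in mean sum, and endothelial markers, of which 1 of 3 fell, went from 75.8 to 23.7 CPM. Mural and smooth muscle markers were at 81.3, 110.1, 132, 57.2 and 33.5 CPM from P0 to P21, with 1 of 2 tested falling. The part of any of these cells in the courses of the 10 genes was not tested.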

How the data were processed

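RNA of laser-captured PCs was measured in 15 libraries, 3 at each of 5 time points, taken as groups from the labels. Each deposited file lists raw counts, as integers, for Ensembl genes of 1 library. The authors trimmed reads (cutadapt 1.2.1), aligned them to GRCm38/mm10 by GSNAP, set aside those without a unique position and counted the rest with HTSeq 0.5.3p9 in intersection-strict mode. The annotation release is not given in the sources used here. Reads assigned to no feature (16.7 to 29.8% of all tallies, most at P0) and ambiguous reads (1.16 to 1.57%) stayed out of library sizes. In intersection-strict mode the former include reads not fully contained in a feature. Replicates are biological per the study's methods, and no pair of libraries agreed within sampling noise.

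Genes were named by GENCODE M21. Slopes on day were tested by quasi-likelihood in edgeR 4.0.16 (R 4.3.3), with TMM, filterByExpr by time point (14293 genes, among them all 10 described) and Benjamini-Hochberg adjustment at 0.05. Steps were contrasts with the time point as a factor over all 15 libraries. RPKM was computed from total counts on genes and summed exon length, and CPM from TMM effective sizes. Counting limits (3 counts) cover counting error only. Ratios used two-sided exact permutation tests of P14 and P21 against P0 and P4, adjusted over 8. Alternatives were DESeq2 1.42.0 and its size factors, limma-voom (limma 3.58.1), no count filter, log2(day + 1), a replicate block, P0 left out and each library left out. Scripts were tested on simulated counts, and Python 3.11.15 with numpy 2.4.6, scipy 1.17.1, pandas 2.3.3 and matplotlib 3.10.9 served for the rest.

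The genes and lists were chosen with earlier results of these data known. Named pathway genes are up to 3 per list and direction with the largest slope among those called, if their best time point averaged 10 CPM or more, and like genes are the 3 with the highest correlation. *Itpkb*, *Itpkc*, *Stim2*, *Orai1*, *Itpr3*, *Atp2a1* and *Ahcyl1* were named as family members after their values were seen. *Itprip* was not analysed here. A few genes that these rules name are not reported here.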

Additional observations from a re-analysis of the deposited data

How the results depend on the processing

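Of the 10 slopes, those of *Itpr1*, *Ryr1*, *Ryr3*, *Atp2a2*, *Atp2a3*, *Car8*, *Itpka* and *Stim1* stayed on the same side of the threshold under all 22 alternatives, and *Itpr2* lost its call in 13. The number of genes falling with day was 1 instead of 2 by limma-voom, without the count filter, with the replicate block and on log2(day + 1), and 1 to 2 with each library left out. From P0 to P4 the number that changed was 4 by limma-voom and with the replicate block instead of 6, and 4 to 6 with each library left out. Among all 14293 genes, 283 changed at that step by limma-voom and 226 with the replicate block. From P8 to P14 it was 5 by limma-voom and without the filter. From P14 to P21 it was 2 by DESeq2 and 3 by limma-voom, instead of 0, and from P4 to P8 it was 1 to 2 with each library left out. Of the pathway genes, 3 fell by limma-voom and 2 on log2(day + 1), instead of 6. The causes were not tested.

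Some steps that did not pass changed sign. *Itpr2* from P8 to P14 was 0.031 by limma-voom, and with each library left out ranged from -0.34 to 0.30, and from P4 to P8 from -0.58 to 0.068. *Ryr2* from P14 to P21 was 0.046 by limma-voom and 0.027 with the replicate block, with a range of -0.40 to 0.13 without single libraries. *Ryr3* ranged from -2.49 to 0.065 from P0 to P4, from -5.15 to 1.84 from P8 to P14 (1.84 without P8 replicate 2, instead of -3.30) and from -2.29 to 0 from P14 to P21, where no count was left without P14 replicate 1.

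With P4 alone as the early group, log2 ratios differed by -5.33 for *Ryr3* over *Ryr2*, 0.18 for *Itpr1* over *Atp2a2* and -0.85 for *Itpka* over *Itpr1*. Over the comparisons that leave out 1 library the differences ranged from 0.80 to 1.16 for *Itpr1* over *Atp2a2*, from -1.15 to -0.58 for *Itpka* over *Itpr1*, from 0.027 to 2.46 for *Ryr1* over *Ryr2* and from -0.11 to 0.31 for *Stim1* over *Atp2a2*.

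Replicate numbers did not pair the libraries. Deviations from the group means correlated by -0.0033 on average between libraries with the same number (30 pairs) and by 0.0017 between others (60 pairs), and 0 of 15 libraries correlated best with its own number. With the replicate block the slope of *Itpr2* (adjusted p = 0.0613 by edgeR) and the P0 to P4 steps of *Ryr1* (0.0819) and *Atp2a3* (0.0640) no longer passed. Few counts limit what can be said of *Ryr1* and *Ryr2* at P0, of *Atp2a3* at P0 and P4 and of *Ryr3* throughout, and with 3 libraries per time point 1 library can decide such a step.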
